A study of Homo sapiens with 9 samples.

Results

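HCCC-9810 is a human cell line derived from cholangiocarcinoma, a cancer of the bile duct epithelium. Its baseline expression was read from the 3 si-Control arrays among the 9 arrays of a knockdown series, and the other arrays were not used here. The titles of these 3 samples name the transfected control RNA si-Control, whereas their source and treatment entries name it control shRNA, and the labels do not settle which was used. The labels describe biological replicates of 1 line, so the spread between arrays is that between cultures of this line, and untransfected cells were not analysed here. Each gene was represented by its brightest single-symbol probe set, and the 18132 genes read in this way were ranked by mean intensity over the 3 arrays.

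Bile duct cells (cholangiocytes) are polarized epithelial cells that modify bile. They are known for keratins 7 and 19, the transcription factor SOX9 and the adhesion protein EPCAM, whereas their sister lineage, the hepatocytes, makes albumin and other plasma proteins, bile acids and urea. Carcinoma lines can keep, lose or add to the programme of their tissue of origin, so a baseline profile shows which receptors, pathway genes and markers can be studied in a given line.

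The deposited intensity is on a linear scale in arbitrary units and carried no detection call. A background limit was therefore set on each array from 463 genes of families taken as a negative reference: 333 olfactory receptors, 23 bitter taste receptors, 82 keratin-associated proteins and 25 beta defensins. Whether any of these genes is expressed in these cells was not tested. The 95th percentile of these genes was 64.6, 56.5 and 62.8 on the 3 arrays, and a gene above it on all 3 arrays was called above background. Of the 18132 genes, 8786 (48.5%) were above background, 8791 (48.5%) were not above it on any array and 555 (3.06%) were mixed. By construction about 1 reference gene in 20 passes, and 24 of the 463 (5.18%) did. A stricter limit, the 99th percentile (262, 236 and 243 on the 3 arrays), was passed on all 3 arrays by 4260 genes (23.5%). A gene called not above background may still be expressed at a level these probes do not resolve. Intensity also depends on the probes, so ranks order probe set signals and not transcript numbers. Because the brightest probe set was taken, a gene with several probe sets had more chances to pass. Of 6829 such genes above background, 2191 had all their probe sets above it.

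The 3 arrays were close to each other. Log2 intensities of all genes correlated at 0.998 to 0.9986 (Pearson) across genes, and the median absolute difference between a pair of arrays was 0.0665 to 0.0874 log2 units. At most 4.97% of probe sets held identical values on a pair of arrays. The SD of log2 intensity over the 3 arrays had a median of 0.0496 for genes above background (90th percentile 0.108) and of 0.0922 for genes not above it. Any scaling between arrays before deposit is not stated, and its effect on this spread was not tested. The 16 reference genes of the kind used to normalize expression, from GAPDH to TBP, were all above background, 15 of them also above the stricter limit.

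**Figure D1:**
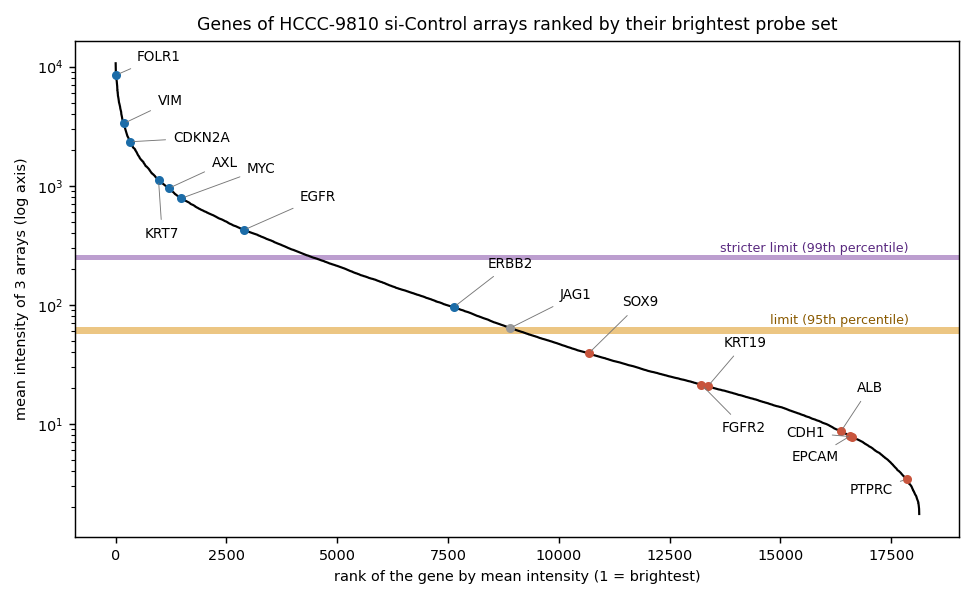
Mean intensity of the 18132 genes over the 3 si-Control arrays (log axis) against their rank, with the bands showing the range over the arrays of the limit (95th percentile of the negative reference genes, orange) and of the stricter limit (99th percentile, purple). Points mark named genes that were above background (blue), mixed (grey) or not above background (red): FOLR1 and VIM lie near the top, KRT7, MYC and EGFR above both limits, ERBB2 between them, and KRT19, ALB, EPCAM and CDH1 below both.

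The brightest genes were those of protein synthesis. The highest mean was that of RPL32 (10682 ± 225, SD, n = 3), followed by RPS2, and 51 of the 100 brightest genes encoded ribosomal proteins. Of 65 ribosomal protein genes read, 64 were above background. The 100 brightest genes held 12.6% of the summed intensity of all genes, and 1094 genes made up 50% of it. Among the 25 brightest genes, 7 encoded other proteins. ND4, a mitochondrially encoded subunit of respiratory complex I, read 8919, 8758 and 9093. FTL, the light chain of the iron store ferritin, read 8712, 8581 and 8743. TPT1, a growth-related protein whose messenger RNA is translated with those of the ribosome, read 8137, 7951 and 8148. These levels varied little between arrays, and all 8 FTL probe sets were above background. GAPDH, a glycolytic enzyme, had a mean of 8347 ± 147 and was read from 1 probe set whose suffix (_x_at) marks probes shared with other sequences. GNAS, which encodes the stimulatory G protein alpha subunit, had a mean of 7855 ± 151.

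The remaining pair among the 25 brightest were FOLR1 and BASP1, neither of which serves a housekeeping role. FOLR1 encodes folate receptor alpha, a surface protein of some epithelia and carcinomas that brings folate into the cell. It ranked 10 of 18132 and read 8800.0, 8318 and 8398 on the 3 arrays (mean 8505 ± 258). Its other probe sets had means of 6522 and 6386, so all 3 probe sets of the gene were high on all 3 arrays. The related folate receptor genes FOLR2 (mean 43.5) and FOLR3 (mean 26.8), looked up after the level of FOLR1 was seen, were not above background. BASP1 encodes a myristoylated protein of the inner membrane face best known from nerve growth cones. It ranked 7 and read 8952, 8508 and 8790 (mean 8749.7 ± 225), and its other probe sets had means of 3795 and 4462.

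Promoter sequence is shown for BASP1, one of the brightest genes, beside OCLN and ALB, which were not above background. OCLN encodes the tight junction protein occludin and had a mean of 16.3 ± 2.002, and ALB, albumin, had a mean of 8.62 ± 1.18. The sequences are the 250 bases before the annotated start in RefSeq (GRCh38.p14, plus strand), at chr5:17216573-17216822 for BASP1, chr5:69492297-69492546 for the first start of OCLN and chr4:73404037-73404286 for ALB. Capitals mark CG dinucleotides.
BASP1: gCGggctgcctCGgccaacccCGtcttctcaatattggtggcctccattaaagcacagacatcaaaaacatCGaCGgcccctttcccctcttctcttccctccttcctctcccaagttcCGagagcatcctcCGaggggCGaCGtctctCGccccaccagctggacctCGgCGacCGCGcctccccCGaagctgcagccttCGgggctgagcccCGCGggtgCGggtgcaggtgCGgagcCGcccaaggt
OCLN: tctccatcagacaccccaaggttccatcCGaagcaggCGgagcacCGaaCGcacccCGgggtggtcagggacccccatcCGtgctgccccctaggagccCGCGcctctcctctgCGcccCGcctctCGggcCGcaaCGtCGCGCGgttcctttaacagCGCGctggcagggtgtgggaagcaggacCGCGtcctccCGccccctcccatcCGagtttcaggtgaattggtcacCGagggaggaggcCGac
ALB: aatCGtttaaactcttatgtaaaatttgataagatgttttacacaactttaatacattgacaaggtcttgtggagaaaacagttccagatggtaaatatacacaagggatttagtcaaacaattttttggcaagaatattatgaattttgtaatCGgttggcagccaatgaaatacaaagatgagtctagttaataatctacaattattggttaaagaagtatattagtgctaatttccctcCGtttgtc
The windows of BASP1 and OCLN held 21 and 24 CG dinucleotides and that of ALB held 3. A bright gene and a gene not above background thus both had a CG-rich window, and the CG-poor window belonged to the other gene not above background.

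Over all genes, CG-rich windows were common among genes above background. Where a gene had several annotated starts, its CG count was the mean over their windows. At least 10 CG dinucleotides in the 250 bases stood in 91.5% of protein-coding genes above background (6701 of 7321 with a sequence, median 21), against 72.9% of all protein-coding genes (10272 of 14085, median 18). Among the 1000 brightest genes the share was 94.4% (811 of 859). The reference genes used for the limit had it in 0.535% (2 of 374, median 1), so the families that set the limit also differed from most genes in their promoter sequence. The letters TATAAA, searched on the gene's strand 40 to 20 bases before the start, were in 2.16% of protein-coding genes above background, 4.15% of all protein-coding genes, 3.84% of the 1000 brightest genes and 10.7% of the reference genes. A gene was counted if any of its annotated starts had these letters, so genes with more starts had more windows searched. No share is given for protein-coding genes not above background, because only 78.5% of them had a sequence.

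Most lineage genes were not above background. Of 317 read members of 16 lineage lists, 70 (22.1%) were above background, beside 48.5% of all genes, and 29 were above the stricter limit. Their median percentile was 30.2, where 50 is the median gene. The biliary epithelium list had 12 of 28 members above background (42.9%, median percentile 38.2) and the hepatocyte list 3 of 32 (9.38%, median percentile 24.8). Without _x_at and _s_at probe sets, the biliary count was 7 of 24 (29.2%). Some biliary markers were thus above background and others were not, and the share above it was no higher than that of all genes. In a bulk culture, fewer cells expressing a gene and less RNA per cell cannot be told apart.

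Among biliary markers, KRT7, the keratin of ductal epithelium, was the brightest. It read 1139, 1146 and 1069 (mean 1118 ± 42.5) and stood at the 94.7th percentile. KRT19, its usual companion in bile ducts, read 22.3, 21.2 and 18.4 from 1 probe set and was not above background. The keratins thus split, with KRT7 far above the stricter limit and KRT19 below the lower one on all 3 arrays. SOX9, the biliary fate factor, read 34.1, 43.0 and 40.02, and none of its 3 probe sets was above background. EPCAM read 7.40, 8.16 and 8.15, and its probe sets, 3 in number, were all below the limit. SOX9 would be above a looser limit, under which 40% of all probe sets lie, whereas KRT19 and EPCAM would not.

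Other biliary genes above the stricter limit were ANXA4, an annexin (mean 470 ± 8.77, 7 of 9 probe sets above background), BICC1, an RNA-binding protein tied to cystic kidney and duct disease (426 ± 21.7), and ONECUT2, a liver and bile duct transcription factor (310.4 ± 9.88). CD24 (mean 299.5 ± 10.4) and MUC1 (263 ± 12.8), both glycosylated surface proteins, also passed it. CD24 was read only from _x_at or _s_at probe sets, and MUC1 was not above background without them. SLC4A2, an anion exchanger (213), CLDN4, a claudin (175), ELF3, an epithelial factor (114), and GPBAR1, a bile acid receptor (79.6), lay between the limits. The channels and carriers that shape bile were mostly not above background: CFTR had a mean of 11.03, AQP1 and the secretin receptor SCTR did not pass, and the bile acid carrier SLC10A2 did not pass either. SPP1, osteopontin, with 6 probe sets below the limit (brightest mean 19.1), and PROM1 (10.2) were also not above background. JAG1, the Notch ligand whose loss causes bile duct paucity, was mixed at 62.4, 64.7 and 64.1.

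Keratins other than KRT7 were divided. KRT18 read 1857, 1708 and 1701, and KRT8, its partner, read 680.3, 679 and 628. Both genes were read only from _x_at probe sets, which can also detect related sequences, although all 8 KRT8 probe sets were above background. KRT10 had a mean of 1008 ± 15.4 and KRT80 of 75.7 ± 2.38. KRT19, KRT20 and KRT23 were not above background. The basal keratins KRT5 and KRT14 were not above background, and KRT4 was mixed. In all, 5 of 26 keratins read were above background (19.2%, beside 48.5% of all genes).

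Epithelial junction genes were divided, also within tight junctions and within desmosomes. Plakoglobin JUP (1573, 1567 and 1511), alpha-catenin CTNNA1 (1402.5, 1507 and 1469.5) and the desmosomal plaque protein DSP (1338, 1367 and 1425) were all above the stricter limit. The adhesion receptor CXADR (mean 947 ± 23.9), the desmosomal cadherin DSG2 (600.5 ± 29.7) and the scaffold TJP1 (595 ± 17.4) were above it as well. In contrast CDH1, E-cadherin and the main adhesion molecule of epithelia, read 8.62, 7.45 and 7.26, and its other probe set was below the limit as well. Occludin, CLDN1 (mean 13.9 ± 0.90, 4 probe sets) and the splicing factor ESRP1 (12.3 ± 0.21) were also not above background, while ESRP2 read 157 ± 5.29. The claudins CLDN4 and CLDN7 were above background and CLDN3 was not, and the desmosomal PKP3 was above background while PKP1, DSC3 and DSG3 were not. In all, 12 of 33 junction genes were above background (36.4%, beside 48.5% of all genes), and CDH1, EPCAM and OCLN were not among them.

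Of 30 mesenchymal and fibroblast genes 11 were above background (36.7%, beside 48.5% of all genes). Vimentin VIM, the intermediate filament of mesenchymal cells, read 3305, 3326 and 3364 (mean 3332 ± 29.99, 99th percentile of genes) and both of its probe sets were high. S100A4, a calcium-binding protein, had a mean of 2297 ± 35.7. CDH2, N-cadherin, read 386, 361 and 379, from 1 of 2 probe sets. The repressors of epithelial genes ZEB1 (458 ± 6.88, 6 of 7 probe sets), SNAI2 (151 ± 6.18), TWIST2 (153 ± 3.53) and TWIST1 (67.8 ± 4.69) were above background, while ZEB2 was not and SNAI1 was mixed. The contractile genes ACTA2 and TAGLN were not above background. Fibronectin FN1 was above background at a mean of 80.3 ± 5.32, but in 2 of 8 probe sets. Collagens COL1A1 (29.4 ± 0.26, 5 probe sets) and COL3A1 (7.97 ± 0.19, 5 probe sets), the fibroblast proteins FAP (2.84), LUM (2.28), DCN (17.0) and THY1 (14.6), and the receptors PDGFRA (17.5) and PDGFRB (53.9) were not above background. These collagen and fibroblast genes are the ones by which fibroblasts are usually recognised. COL1A1, PDGFRB, ACTA2, TAGLN and ZEB2 would pass the looser limit named above for SOX9.

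**Figure D2:**
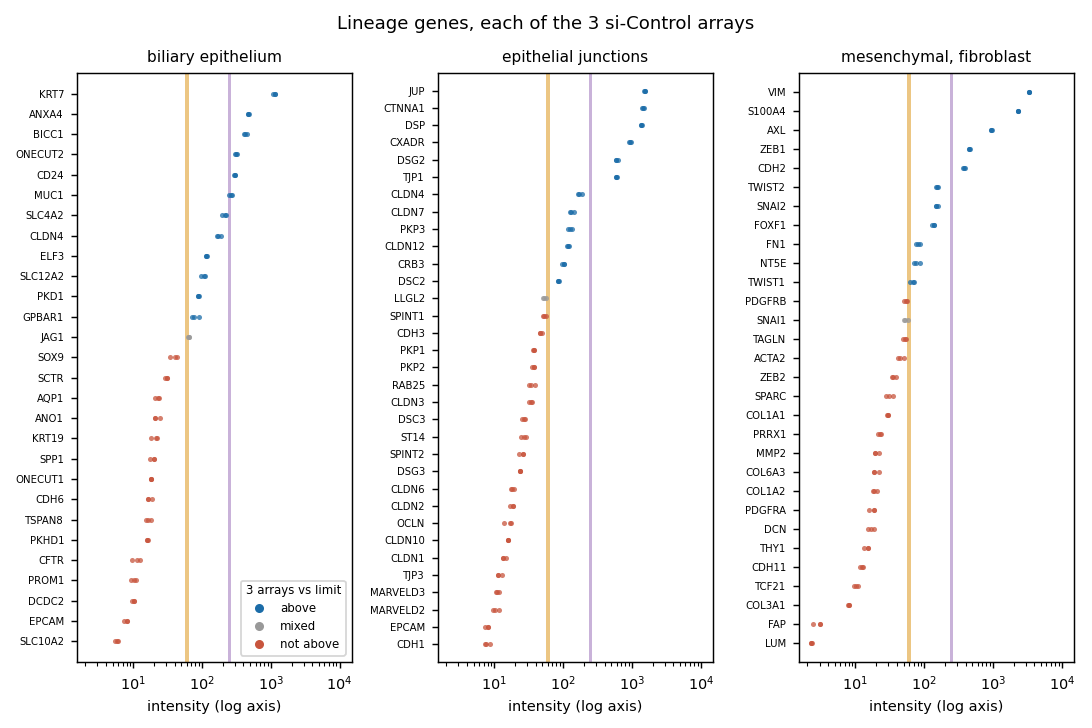
Intensity of each member of the biliary, junction and mesenchymal lists on each of the 3 si-Control arrays (log axis), ordered by mean, with the limit (orange band) and the stricter limit (purple band) drawn as their range over the arrays. KRT7, JUP and VIM head their lists, the 3 points of a gene lie close together, and EPCAM and CDH1 lie at or near the foot of theirs.

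Hepatocyte genes were largely not above background. ALB read 9.93, 7.63 and 8.32, APOA1 had a mean of 43.6 ± 0.44 and TTR of 38.6 ± 3.32, and the fibrinogen genes did not pass. APOA1 and TTR would pass the looser limit named for SOX9, and ALB would not. The exception above the stricter limit was CPS1, the first enzyme of the urea cycle, with 378, 427 and 433 (2 of 3 probe sets). F2, prothrombin (mean 94.1 ± 5.31), and AMBP (70.5 ± 0.58) were above the lower limit in 1 of 3 probe sets each. Of the fetal liver list, AFP (7.91 ± 1.53) and GPC3 (18.3 ± 2.65) were not above background. IGF2BP3, an RNA-binding protein of embryonic tissue, read 916, 974 and 1039.5, IGF2BP1 had a mean of 241 ± 0.59 and SALL4 of 109 ± 3.999. LIN28B, another RNA-binding protein of fetal tissue, was not above background, so 3 of the 8 members read passed (37.5%, beside 48.5% of all genes).

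Among 32 endoderm and epithelial transcription factors 9 were above background (28.1%, beside 48.5% of all genes). KLF4 read 748, 808 and 858, SOX4 had a mean of 658 ± 32.3 and TBX3 of 277 ± 12.7, all above the stricter limit. GATA6 (mean 119.8 ± 11.9), HHEX (104 ± 6.68) and KLF5 (94.4) lay between the limits. The pioneer factors of liver and gut FOXA1 (31.98 ± 4.54) and FOXA2 (22.7 ± 0.44) and the epithelial factor GRHL2 (23.5 ± 5.22, 5 probe sets) were not above background.

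Most markers of other cell types were not above background. Of 27 gastric, intestinal and pancreatic genes 1 was above the limit and 0 were above the stricter limit. The corresponding counts above the lower limit were 2 of 15 squamous, 3 of 16 neuroendocrine and neural, 1 of 9 mesothelial, 1 of 12 endothelial, 2 of 21 immune and 1 of 5 erythroid genes. Each of these shares was below the 48.5% of all genes. None of the neuroendocrine, mesothelial, endothelial, immune or erythroid members passed the stricter limit. The pan-leukocyte gene PTPRC had a mean of 3.41 ± 0.20 with all 6 probe sets below the limit, and the endothelial PECAM1 had 39.3 ± 0.31. Apart from the squamous gene SFN, given below, the members that passed the lower limit did so at low levels, often in a single probe set. Examples were the leukocyte integrin ITGAX at 102 ± 1.53 (1 of 4), the endothelial ESAM at 106 ± 3.95 (1 of 2), haemoglobin HBB at 99.6 ± 5.17 (1 of 3), GFAP at 69.1 ± 7.91 (1 of 8) and trypsinogen PRSS1 at 90.8 ± 10.8 (1 of 3). These 5 calls were lost at the stricter limit.

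Some markers outside the bile duct programme were above background, not all of them above the stricter limit. SFN, the 14-3-3 protein of squamous and other epithelia, read 1194.5, 1098 and 1036. MSLN, mesothelin, had a mean of 125 ± 9.19, between the limits. ZP3, an egg coat gene, had a mean of 334 ± 31.8, read from an _x_at probe set. Of 22 cancer-testis antigens 5 were above background (22.7%, beside 48.5% of all genes). MAGED2 (532 ± 12.1), which is also expressed in normal tissue, and MAGEB2 (283 ± 5.53) were above the stricter limit. MAGEA1 (170.2 ± 7.19), XAGE2 (138 ± 4.45) and PRAME (111 ± 8.14) lay between the limits, and MAGEA1 was read only from _x_at or _s_at probe sets. The other antigens read were not above background, except MAGED1, which was mixed. Of 15 pluripotency and germ cell genes 3 were above background (20%), ZP3 and, near the limit, UTF1 (67.6) and DPPA4 (66.1). POU5F1 (23.3 ± 0.61), NANOG and SOX2 were not above background.

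Most oncogene and tumour suppressor genes were above background. Of 133 read members 109 (82%) were above it, beside 48.5% of all genes, and 58 were above the stricter limit, with a median percentile of 74.1. These lists hold many genes of basic cell growth, and these values carry no information on mutation or protein activity.

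Of 31 genes of MYC, the cell cycle and survival 26 were above background (83.9%, beside 48.5% of all genes). MYC itself, the growth-promoting transcription factor, read 736, 782 and 834 (mean 784 ± 49.3, 91.8th percentile), whereas its relatives MYCN (30.1 ± 3.56) and MYCL (29.1 ± 2.07), with 4 probe sets each, were not above background. The mitotic kinase CDK1 read 1976, 1976 and 2070.4, AURKA 1382.5, 1315 and 1312, and CCNB1 had a mean of 938. Among G1 regulators CDK6 had a mean of 1693 ± 33.95 and CDK4 of 1140.5 ± 0.90, each with all 4 probe sets above background. Cyclins CCND3 (755 ± 32), CCND1 (357 ± 9.24), CCND2 (308) and CCNE1 (289 ± 7.33) were above the stricter limit. Of the survival genes MCL1 had a mean of 1086 ± 34.7, while BCL2, with 6 probe sets, was not above background (46.9 ± 1.71). BCL2 would pass the limits set at the 90th percentile or on olfactory receptors alone.

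In the RAS-ERK and PI3K list 20 of 24 members were above background (83.3%, beside 48.5% of all genes). The kinases ABL1 (1128 ± 10.7) and MAP2K1 (993 ± 41.7) and the adaptor SHC1 (1023 ± 5.44) were the brightest, and HRAS had a mean of 233 ± 14. The PI3K subunits PIK3R1, PIK3CB and PIK3CD and the lymphoid kinase LCK were not above background. Among other drivers NFE2L2, the master factor of the oxidative stress response, read 2241, 2411 and 2574. The Hippo pathway factors were present, with TEAD1 at 1751, 1748 and 1675 (1 of 3 probe sets) and YAP1 at 1105, 1071 and 1169 (7 of 8 probe sets). CTNNB1, beta-catenin, read 1354, 1549 and 1652.5, PRKACA, a protein kinase A catalytic subunit, had a mean of 1481.5 ± 47.4, and HMGA1, a chromatin protein of growing cells, of 954 ± 41.3. IDH1, an enzyme mutated in some cholangiocarcinomas, had a mean of 552 ± 8.81 and IDH2 of 75.2 ± 3.17. GLI1, SOX2, LMO3 and TBX2 were not above background.

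Of 45 tumour suppressor genes 35 were above background (77.8%, beside 48.5% of all genes). CDKN2A, which encodes the cell cycle inhibitors p16 and ARF and is often deleted in carcinoma lines, read 2339, 2355 and 2324 (98.2nd percentile), with all 3 probe sets above background (the other means were 294 and 129). Its chromosomal neighbours CDKN2B (105 ± 2.99) and MTAP (144 ± 13.1) were also above background. RNA from this region was thus detected from each of the 3 genes. The related inhibitors CDKN1A (1655, 1713 and 1583) and CDKN1B (609.5, 657 and 740.2) were above the stricter limit. RB1, the target of the G1 kinases, had a mean of 166 ± 14.1 in 1 of 3 probe sets, and its relative RBL1 was not above background (31.7 ± 1.95). The mismatch repair gene MSH6 (928 ± 0.45), SMAD4 (354 ± 3.96) and the chromatin remodelling subunit ARID1A (323 ± 12.3, 1 of 6 probe sets) were above the stricter limit. The 8 suppressors not above background were STK11 (52.0 ± 5.14), RBL1, WWOX, FHIT, LATS1 (16.4 ± 1.80), AXIN2 (12.9 ± 0.53), PMS2 and DLC1 (8.62 ± 0.18). AXIN2 is also a common readout of Wnt signalling. STK11, RBL1 and WWOX would pass the looser limit named for SOX9.

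**Figure D3:**
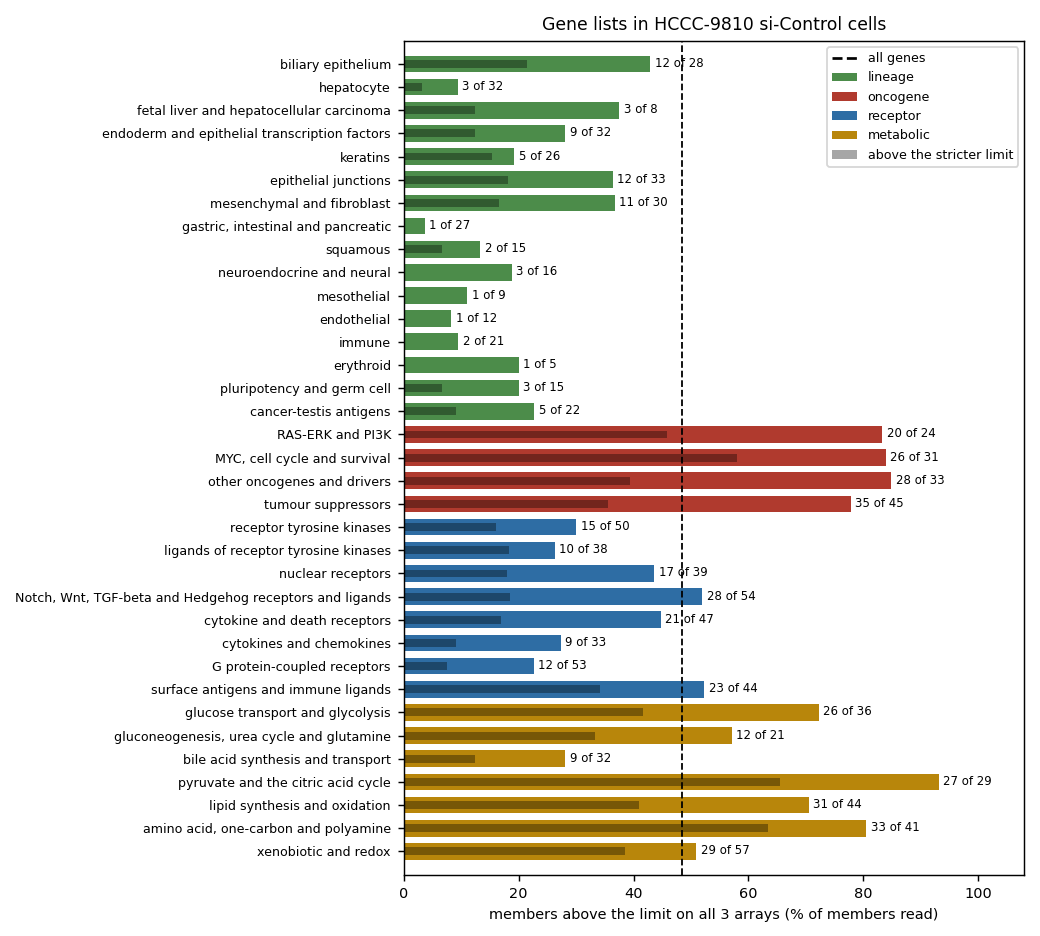
Share of the read members of 35 gene lists that were above the limit on all 3 si-Control arrays (coloured bars, % of members, with counts at the bar ends) and above the stricter limit (dark inner bars), beside the share over all genes (dashed line, 48.5%). The 4 oncogene and suppressor lists and the citric acid cycle lie right of the line, and the gastric, intestinal and pancreatic list has 1 of 27 members above the limit.

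Receptor and ligand genes were above background in 134 of 357 cases (37.5%, beside 48.5% of all genes), with 62 above the stricter limit and a median percentile of 44.9. Of 50 receptor tyrosine kinases, the receptors through which growth factors signal, 15 were above background (30%). AXL, the receptor for GAS6, was the brightest at 945, 945 and 960.1 (2 of 2 probe sets). MET, the receptor for hepatocyte growth factor, read 614, 615 and 635, but from 2 of 6 probe sets. EGFR read 423, 423.5 and 424.5, with 4 of 8 probe sets above background. The levels of these 3 receptors differed little between arrays. IGF1R (485 ± 48.2), INSR (336 ± 4.54), the kinase-like receptor RYK (611 ± 5.99), the Wnt receptor ROR2 (316 ± 7.93) and the collagen receptor DDR1 (286 ± 3.89) were also above the stricter limit.

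Within the EGFR family, EGFR was above the stricter limit, ERBB2 lay between the limits at 95.1, 95.5 and 94.8, and ERBB3 (20.6 ± 2.51) and ERBB4 (14.7 ± 0.86) were not above background. Of the FGF receptors FGFR1 had a mean of 186 ± 7.81 and FGFR4 of 99.7 ± 8.77 (1 of 7 probe sets). FGFR2, a receptor altered by gene fusion in some cholangiocarcinomas, read 22.1, 19.7 and 22.1, and none of its 12 probe sets was above background. FGFR3 (44.1 ± 6.07) was not above background either, although it would pass the looser limit named for SOX9. The fusion kinases ALK (26.4 ± 3.03), ROS1 (10.7 ± 0.70) and RET (11.97 ± 0.99), the endothelial receptor KDR (33.2 ± 1.10) and KIT (6.95 ± 0.80) were not above background.

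Of 38 ligands for these receptors 10 were above background (26.3%, beside 48.5% of all genes). VEGFA, the angiogenic factor, read 731, 701 and 754, and VEGFB had a mean of 555 ± 29.8. PDGFA (452 ± 9.15), NRG1 (374 ± 20.3), FGF2 (365 ± 4.20), the KIT ligand KITLG (344 ± 2.10) and EFNA1 (313 ± 13.3) were above the stricter limit. Of the EGFR ligands, EGF (12.6 ± 1.73), TGFA (22.7 ± 1.54) and HBEGF (52.2 ± 2.05) were not above background. EREG, EPGN and BTC did not pass either. HBEGF would pass the limits set at the 90th percentile or on olfactory receptors alone. HGF, the ligand of MET, was not above background (16.2 ± 1.11), GAS6, the ligand of AXL, was mixed, and PROS1, which can also bind AXL relatives, had a mean of 253. For NRG1, the receptors ERBB3 and ERBB4 were not above background.

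**Figure D4:**
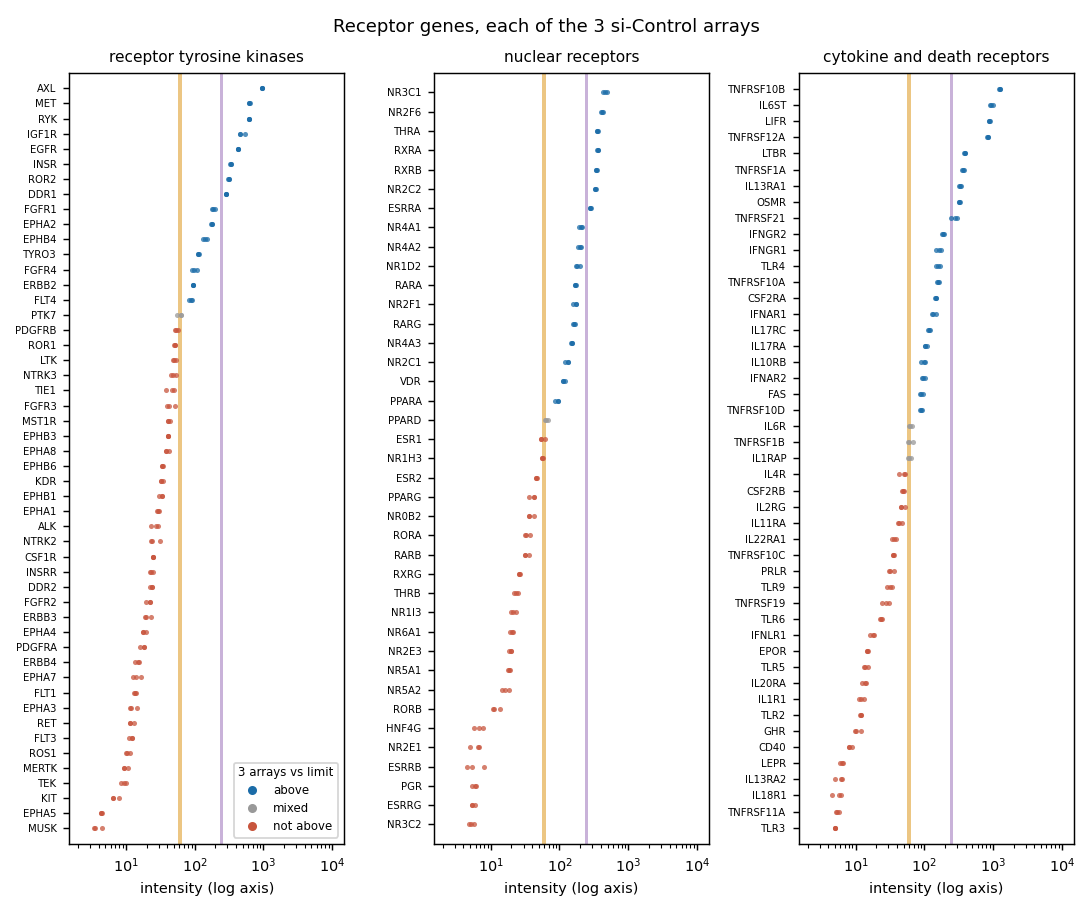
Intensity of each receptor tyrosine kinase, nuclear receptor, and cytokine or death receptor on each of the 3 si-Control arrays (log axis), ordered by mean, with the limit (orange band) and the stricter limit (purple band). AXL, NR3C1 and TNFRSF10B head the 3 panels, and most receptor tyrosine kinases lie left of the limit.

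Nuclear receptors, which are transcription factors switched by hormones and lipids, were above background in 17 of 39 cases (43.6%, near the 48.5% of all genes). The glucocorticoid receptor NR3C1 read 428, 459 and 491.5, with all 10 probe sets above background. The orphan receptor NR2F6 (414 ± 16.3), the thyroid hormone receptor THRA (358 ± 8.13) and the retinoid X receptors RXRA (354 ± 5.77) and RXRB (343 ± 7.95) followed. The vitamin D receptor VDR had a mean of 115 ± 3.17. The oestrogen receptor ESR1 (56.1 ± 4.83), the progesterone receptor PGR (5.78 ± 0.38) and PPARG (40.3 ± 3.91) were not above background, although ESR1 and PPARG would pass the looser limit named for SOX9. NR0B2, a target of the bile acid receptor, was not above background, and NR1H4 was not analysed here.

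In the Notch, Wnt, TGF-beta and Hedgehog list 28 of 54 members were above background, a share (51.9%) near that of all genes. WNT5A, a Wnt ligand of the noncanonical branch, read 716, 716 and 784, and the Wnt receptors FZD6 (484 ± 30.7) and FZD2 (437 ± 7.15) and the R-spondin receptor LGR4 (364 ± 25.1) were above the stricter limit. LGR5, a stem cell relative of LGR4, was not above background (33.9 ± 1.14). Both TGF-beta receptors were above background, TGFBR1 at 730.5 ± 14.9 and TGFBR2 at 411 ± 30.4, while the ligand TGFB1 was not above background. Without _x_at and _s_at probe sets, TGFBR1 was no longer above background and TGFBR2 was not read. BMP2 had a mean of 637 ± 2.57. Among Notch receptors NOTCH2 (256 ± 7.41) and NOTCH3 (140.4 ± 3.07) were above background and NOTCH1 was mixed at 68.5, 61.6 and 58.4. The Hedgehog transducer SMO was not above background (21.1 ± 2.25).

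Of 47 cytokine and death receptors 21 were above background (44.7%, near the 48.5% of all genes). TNFRSF10B, the TRAIL death receptor DR5, read 1266, 1226 and 1254 (1 of 3 probe sets). IL6ST, the shared signalling chain of IL-6 family cytokines, had a mean of 955 ± 46.0 and LIFR of 871 ± 16.9 with all 5 probe sets above background, and TNFRSF12A had 840.0 ± 15.3. IL6R, the chain specific to IL-6, was mixed at 59.3, 62.5 and 65.9. Of 33 cytokines and chemokines 9 were above background (27.3%, beside 48.5% of all genes). MIF read 5656, 5494 and 5421, GDF15, a stress-induced TGF-beta relative, 1693, 1666 and 1532.5, and IL18 had a mean of 408 ± 18.6. IL6 (93.0 ± 5.64) and LIF (142 ± 6.93) lay between the limits. The inflammatory ligands CXCL8 (13.8 ± 1.51), CCL2 (13.8 ± 0.94), TNF (10.7 ± 0.98) and IL1B (28.8 ± 2.04) were not above background.

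Of 53 G protein-coupled receptors 12 were above background (22.6%, beside 48.5% of all genes). GPRC5A, an orphan receptor of lung and gut epithelium, read 909.8, 879 and 854, GPR37 had a mean of 644 ± 35.8 and ADGRG1 of 419.7. CXCR4, the chemokine receptor for CXCL12, read 200.2, 219 and 251, with all 4 probe sets above background, and the adenosine receptor ADORA2B had a mean of 198 ± 6.52.

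Surface antigens and immune ligands were above background in 23 of 44 cases (52.3%, near the 48.5% of all genes), FOLR1 being the brightest. B2M, the light chain of MHC class I, read 5508, 5372 and 5686, with all 8 probe sets above background, and the class I heavy chains HLA-C (533), HLA-E (459.6) and HLA-B (424) were present, although these genes share sequence with each other. The complement regulators CD55 (4309.6 ± 57.9), CD46 (2309 ± 133) and CD59 (1845 ± 47.4) were far above the stricter limit. CD44, the hyaluronan receptor (744 ± 40.4, all 10 probe sets), L1CAM (635 ± 10.7) and the zinc carrier SLC39A6 (804 ± 30.8) followed. CD274, which encodes PD-L1, read 17.7, 21.1 and 22.7 and was not above background. The antigens CEACAM5 (10.9 ± 3.01), MUC16 (26.3 ± 0.78) and NECTIN4 (28.9 ± 0.97) and the class II gene HLA-DRA (10.2 ± 0.56) were not above background.

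Metabolic genes were above background in 167 of 260 cases (64.2%, beside 48.5% of all genes), 111 of them above the stricter limit, with a median percentile of 69. The lists differed: 27 of 29 genes of pyruvate and the citric acid cycle were above background, as were 33 of 41 amino acid and one-carbon genes, but 9 of 32 genes of bile acid synthesis and transport. Of the 7 metabolic lists that of bile acids had the lowest share above background (28.1%).

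In glycolysis 26 of 36 genes were above background (72.2%, beside 48.5% of all genes). LDHA, which makes lactate, read 6016, 6063 and 6258.5, LDHB had a mean of 4177.5 ± 232, PGAM1 of 4592 ± 152 and ALDOA of 3610.0 ± 60.9. Of these, LDHA, PGAM1 and ALDOA were read only from _x_at or _s_at probe sets. Of the isoenzymes of the first step HK1 had a mean of 477 ± 21.7 and HK2 of 155.5 ± 6.46. The glucose carrier SLC2A1 read 437, 409 and 422, while the hepatocyte carrier SLC2A2 read 4.58, 4.58 and 5.18. Likewise PKM, the pyruvate kinase of most dividing cells, had a mean of 1008 ± 17.6 and PKLR, the liver form, was not above background (35.5 ± 4.64).

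In gluconeogenesis and the urea cycle 12 of 21 genes were above background (57.1%, beside 48.5% of all genes). ASS1, which joins citrulline and aspartate and is silenced in some carcinomas, read 3296, 3476 and 3421, only from _x_at or _s_at probe sets. CPS1, described above among the hepatocyte genes, and ASL (204 ± 11) were present too. OTC, the step between CPS1 and ASS1, was not above background (10.8 ± 0.41), nor was ARG1, the last step (7.36 ± 0.11), or ARG2. The gluconeogenic genes PCK1 (27.5 ± 3.92), FBP1 (10.6 ± 0.61) and G6PC1 (22.4 ± 2.68) were not above background, while the mitochondrial PCK2 had a mean of 116 ± 2.28.

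Of 32 bile acid genes 9 were above background (28.1%, beside 48.5% of all genes), among them export pumps and some synthesis genes. ABCC2, the canalicular organic anion pump, read 766, 801 and 766, and ABCC1 (475 ± 19.3) and ABCC3 (390.0 ± 9.16) were above the stricter limit. CYP7A1, the rate-limiting enzyme of bile acid synthesis, read 15.5, 14.2 and 13.5. CYP27A1, of the alternative pathway, had a mean of 75.3 ± 5.41, between the limits. The peroxisomal enzyme HSD17B4, which shortens the side chain, had a mean of 352.5 and was above the stricter limit. SLC27A5, which activates bile acids, had a mean of 134, between the limits. The bile acid uptake carrier SLC10A1 (8.34 ± 0.77) and the bile salt export pump ABCB11 (7.68 ± 0.24) were not above background, nor were SLCO1B1, SLCO1B3, SLC51A and SLC51B.

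**Figure D5:**
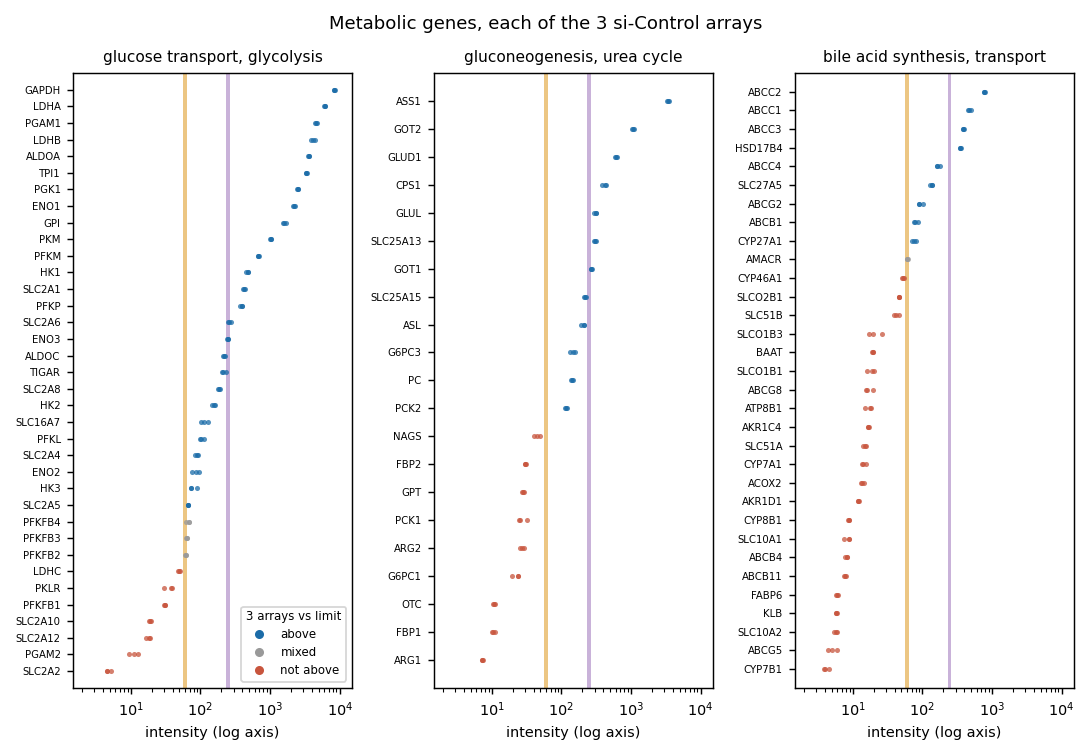
Intensity of each member of the glycolysis, gluconeogenesis and urea cycle, and bile acid lists on each of the 3 si-Control arrays (log axis), ordered by mean, with the limit (orange band) and the stricter limit (purple band). GAPDH, ASS1 and ABCC2 head the panels, and most bile acid genes lie left of the limit.

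In the citric acid cycle list MDH1 read 2345, 2352 and 2572, SDHA had a mean of 1718 ± 68.0 and citrate synthase CS of 914 ± 17.7, and PDK2 and PDK3, kinases that restrain pyruvate entry, were the members not above background. Of 44 lipid genes 31 were above background (70.5%, beside 48.5% of all genes). SCD, the desaturase that makes oleate, read 3399, 3294 and 3423.5, and ACLY (1802 ± 13.8), FADS1 (1602 ± 23.7), ELOVL5 (1639.6 ± 104) and the fatty acid importer of mitochondria CPT1A (936 ± 32.8) were above the stricter limit. FASN, fatty acid synthase, lay between the limits at 205, 198 and 171. The liver fatty acid-binding protein FABP1 (6.48 ± 1.44) and the fatty acid receptor CD36 (3.50 ± 0.37) were not above background.

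Serine, one-carbon and amino acid genes were bright, with a median percentile of 87.4 over 41 genes. The one-carbon enzyme MTHFD2 read 2457, 2476 and 2609, and TYMS, which makes thymidylate, 2497, 2471 and 2571. The serine pathway enzymes PSAT1 (1854, 1962 and 2206) and PHGDH (1319, 1242 and 1201) and asparagine synthetase ASNS (mean 1693 ± 44.7) were above the stricter limit, as were the carriers SLC38A1 (2203 ± 38.5), SLC3A2 (2148.5 ± 52.1) and SLC7A11 (1000.2 ± 30.2). MAT1A, the liver methionine enzyme, was not above background (43.2 ± 4.44), whereas its counterpart MAT2A had a mean of 2095. IDO1, TDO2 and KYNU, of tryptophan breakdown, were not above background.

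Of 57 xenobiotic and redox genes 29 (50.9%, near the 48.5% of all genes) were above background, 22 of them above the stricter limit. TXN, thioredoxin, read 5647, 5807 and 6692. Its reductase TXNRD1 had a mean of 4194 ± 118, the peroxiredoxin PRDX1 of 5222 ± 91.8, the quinone reductase NQO1 of 3577 ± 84.5 and the glutathione transferase GSTP1 of 2595 ± 39.9. AKR1C3, an aldo-keto reductase, had a mean of 5383.5 ± 55.1 from 1 of 2 probe sets, and its near-identical relatives AKR1C1 and AKR1C2 can share its signal. The liver drug-metabolizing enzymes CYP3A4 (14.4 ± 1.11) and CYP2E1 (12.8 ± 2.09) were not above background, nor was ALDH1A1 (11.7 ± 0.60). CYP1B1, a cytochrome of many extrahepatic tissues, had a mean of 929.7 ± 36.6.

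Among 39 proteases, matrix and calcium-binding proteins 23 were above background (59%, beside 48.5% of all genes). ANXA2 read 5311, 5275 and 5381, S100P, a calcium-binding protein of several carcinomas, 2731, 2776 and 2599, and S100A6 had a mean of 2517 ± 102 and the protease inhibitor SERPINE2 of 2560.1 ± 37.9. The basement membrane genes COL4A1 (809), COL7A1 (608) and LAMA5 (594) were above the stricter limit. The matrix metalloproteinases MMP1, MMP2, MMP3, MMP7 (16.5 ± 1.07), MMP9 (27.0 ± 1.33), MMP10 and MMP13, the protease PLAU (26.3 ± 0.67) and LCN2 (17.4 ± 0.33) were not above background, while MMP14 had a mean of 76.1.

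Few genes above background varied much between the arrays. The largest SD of log2 intensity was 0.31, for HMGN5, a nucleosome-binding protein, which read 81.1, 98.3 and 125. Next was TUBE1, epsilon tubulin, at 85.2, 95.3 and 129. UQCRHL, a near-identical copy of the respiratory chain gene UQCRH, read 519.5, 645 and 791 from 1 _x_at probe set, whereas UQCRH read 3007, 2893 and 2841.5. The copy was thus lowest on the first array and its parent gene highest there. The ubiquitin ligase NEDD4 (71.4, 81.6 and 105) and the mitochondrial enzyme MMUT (213, 239.8 and 309.9) were highest on the third array, and TOGARAM2 was lowest there (119.9, 107 and 80.3).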

How the data were processed

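RNA of 3 si-Control samples of HCCC-9810 cells was measured on Affymetrix arrays, 1 array per sample. Per the labels' protocols, Trizol was used for extraction, and biotin-labelled cRNA was prepared from 6 ug of RNA. The authors deposited 1 intensity per probe set and array on a linear scale, made with MAS5 per the submitters' processing notes (version not given in the sources used here), and any scaling between arrays is not stated. No scaling was added. Signal over background, and the number of arrays, limit the precision.

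Of 49395 probe sets, 44988 carried 1 gene symbol in the platform annotation, and the 102 controls, 1832 sets with several symbols and 2473 with none were left out. Symbols were brought to their RefSeq form by gene identifier for 44961 probe sets and kept as annotated for 27. Each of 18132 genes was read from the probe set of highest mean over the 3 arrays. The limits, calls and percentiles are defined in the results, and percentiles run from the dimmest to the brightest gene. No test between groups was made. The 37 gene lists held 1203 genes, of which 1086 were read and 117 were not analysed here. The members, lists and rules were chosen with earlier results of these data known. Named were the 25 brightest genes, in each list up to 10 of the brightest members and up to 10 not above background, all members of short lists, the 10 most variable genes above background, and other list members with their class. FOLR2, FOLR3 and UQCRH were named after their values were seen.

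Alternatives were other percentiles and reference families, a limit under which 40% of all probe sets lie, the mean of a gene's probe sets, reading without _x_at and _s_at sets, quantile normalization, 2 of 3 arrays, and leaving out each array. The calling step was tested on simulated data. Promoter windows came from RefSeq (GRCh38.p14) and gave values only where at least 80% of a set had one. Python 3.11.15 was used with pandas 2.3.3, numpy 2.4.6 and matplotlib 3.10.9.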

Additional observations from a re-analysis of the deposited data

How the results depend on the processing

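Where the background limit was set decided how many genes were called, and the arrays did not. At the 99th percentile of the reference genes 4260 of the 8786 genes stayed above background, with 29 of 70 lineage, 58 of 109 oncogene and suppressor, 62 of 134 receptor and 111 of 167 metabolic list members. With olfactory receptors left out of the reference the lineage count was 37, and at the limit under which 40% of all probe sets lie it was 148 and the receptor count 233. The total was 6331 without olfactory receptors, 10579 with them alone, 10570 at the 90th percentile, 12178 at that 40% limit, 7924 with the mean of a gene's probe sets, 8172 without _x_at and _s_at probe sets (fewer genes read) and 8790 after quantile normalization. Leaving out each array gave 8790 to 8937 genes. Of 634 named genes 560 kept their side of the limit at the 99th percentile and 504 at the 40% limit, against 617 with mean probe sets and 634 after quantile normalization. The deposited arrays already had near-equal median probe set intensities (37.8, 37.2 and 37.2). Quantile normalization could therefore move few calls, and its unchanged result says little. Without _x_at and _s_at probe sets 79 named genes were not read. Of the 555 read, 508 kept their side, 20 were newly above background and 27 were no longer above it. Among those 27 were MUC1, TJP1, TGFBR1, LGR4, ELOVL5, SDHA and PRKACA. A stricter setting removed calls between the 2 limits, and looser ones added genes below the lower limit: 58 named genes at the 90th percentile and 130 at the 40% limit. No paired analysis was possible because the values come from 1 group and from no test.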

Other observations

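Long noncoding RNA genes had probe sets for 454 genes, of which 58 (12.8%) were above background, beside 8678 of 17267 protein-coding genes (50.3%) and 38 of 279 transcribed pseudogenes (13.6%). By chromosome the share of genes above background ran from 39.5% on chromosome 4 and 39.8% on the X chromosome to 58.4% on chromosome 16.

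The reference families also held bright probe sets. The stricter limit is their own 99th percentile, so the 5 of 463 genes above it are fixed by construction. The brightest were the keratin-associated protein genes KRTAP6-1 (623.7, 619.6 and 623.7) and KRTAP10-12 (579.5, 494.5 and 494.5), and the olfactory receptor OR2A14 read 318.5, 292.7 and 286.9. Whether these signals come from the named genes was not tested.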
